A study of Zea mays with 4 samples.

Results

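The genes described here cleave sucrose in the maize kernel and bring the products into it. They are 6 of the 39625 gene IDs in the count tables, chosen by ID: the sucrose synthase genes sh1 (GRMZM2G089713), sus1 (GRMZM2G152908) and sus2 (GRMZM2G318780), the cell wall invertase genes mn1 (GRMZM2G119689) and incw1 (GRMZM2G139300), and the sugar transporter gene SWEET4c (GRMZM2G137954). All 6 passed the filter on low counts. The reference table gave those names to 5 of them, with INCW2 as another name of mn1, and the name SWEET4c came from the list of IDs alone.

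RNA was sequenced from kernels taken 14 days after pollination from field-planted maize (Zea mays). The zmknl1 mutant had 2 libraries and wild type (WT) had 2, each from a different ear. The mutant label carries the name of KNL1, a scaffold protein of the kinetochore, which joins chromosomes to the spindle. Its allele and the inbred background are not given in the sources used here, and the labels name no treatment. The question put to the 6 genes was whether their transcripts differed between zmknl1 and WT kernels.

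Sucrose arrives at the base of the kernel from the mother plant. There, cell wall invertase splits it outside the cells into glucose and fructose, and hexose transporters carry these into the basal endosperm transfer layer, a tissue of transfer cells at the foot of the endosperm. Inside the starchy endosperm, sucrose synthase splits sucrose into fructose and UDP-glucose, which feeds starch synthesis. Maize kernels that lack sh1 are shrunken and those that lack mn1 are miniature.

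Transcripts of the 3 sucrose synthase genes and of the 2 cell wall invertase genes measured in opposite directions. All 3 sucrose synthase genes were lower in both zmknl1 libraries than in either WT library, and both cell wall invertase genes were higher in both. SWEET4c overlapped between the genotypes. In edgeR's quasi-likelihood test, adjusted over all 19519 tested genes with the Benjamini-Hochberg method, 0 of the 6 genes passed an adjusted p of 0.05, against 0.0205% of all tested genes, and 5 of the 6 had an unadjusted p under 0.05, against 10.2% of all tested genes. DESeq2, which is the software listed by the submitters, called sh1 and sus1 lower and incw1 higher, against 2.03% of all genes called lower and 1.59% called higher. All 3 also passed the study's log2 fold change limit of 1.5 in DESeq2, as did 1.97% of all genes on the lower and 1.57% on the higher side. limma voom called 0 of the 6, and 0% of all tested genes, with 5 of the 6 at an unadjusted p under 0.05, against 11.2% of all tested genes. Both zmknl1 libraries lay below both WT libraries for 20.0% of tested genes and above both for 21.9%.

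The libraries held 16595289 to 22725030 counts in genes. WT replicate 2 stood apart: its 10 most abundant genes took 25.251% of its gene counts, against 6.743 to 7.77% in the other libraries, and reads aligned to several places made up 23.926% of its reads, against 10.863 to 13.489%. Values below are counts per 1000000 (CPM) on library sizes scaled by the TMM method, which corrects for such abundant genes. Without that scaling the median log2 fold change of all genes moved to 0.34, against 0.01 with it. No ID carried the name Knl1 in the reference table, so the labels were not checked against that gene.

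The gene sh1 encodes the main sucrose synthase of the starchy endosperm. It measured 3233 and 7378 CPM in the zmknl1 libraries, against 12648 and 30117 CPM in the WT libraries. The highest zmknl1 value was below the lowest WT value, but in each genotype the libraries stood over 2-fold apart, 2.28-fold in zmknl1 and 2.38-fold in WT. As a share of all gene counts, with no scaling between libraries, sh1 took 0.375 and 0.813% in zmknl1 and 1.40 and 2.13% in WT. The means were 5305 ± 2931 CPM in zmknl1 and 21383 ± 12352 CPM in WT (SD, n = 2 each). The log2 fold change was -2.01 ± 0.80 (SE), the edgeR adjusted p 0.447 and the DESeq2 adjusted p 0.0172. Without WT replicate 2 the log2 fold change was -1.24 in edgeR (adjusted p = 0.220), and without zmknl1 replicate 2 it was -2.73 (adjusted p = 1.0).

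The gene sus1 encodes another sucrose synthase, expressed in many maize tissues. Its zmknl1 libraries gave 527 and 698 CPM and its WT libraries 1764 and 2250 CPM. Replicates lay closer together than for sh1, 1.32-fold apart in zmknl1 and 1.28-fold in WT, and the genotypes did not overlap. The log2 fold change was -1.71 ± 0.48 (SE), with an edgeR adjusted p of 0.305 and a DESeq2 adjusted p of 0.00357. It stayed between -1.93 and -1.52 with any library left out, the narrowest such range among the 6 genes.

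The gene sus2 encodes a further sucrose synthase isoform. It had 110 and 41.6 CPM in the zmknl1 libraries and 228 and 193 CPM in the WT libraries. Here the zmknl1 replicates were 2.65-fold apart and the WT replicates 1.18-fold. Its log2 fold change of -1.47 ± 0.52 (SE) passed in neither tool (edgeR adjusted p = 0.400, DESeq2 adjusted p = 0.126). Without zmknl1 replicate 1 it was -2.33, and without zmknl1 replicate 2 it was -0.93.

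**Figure D1:**
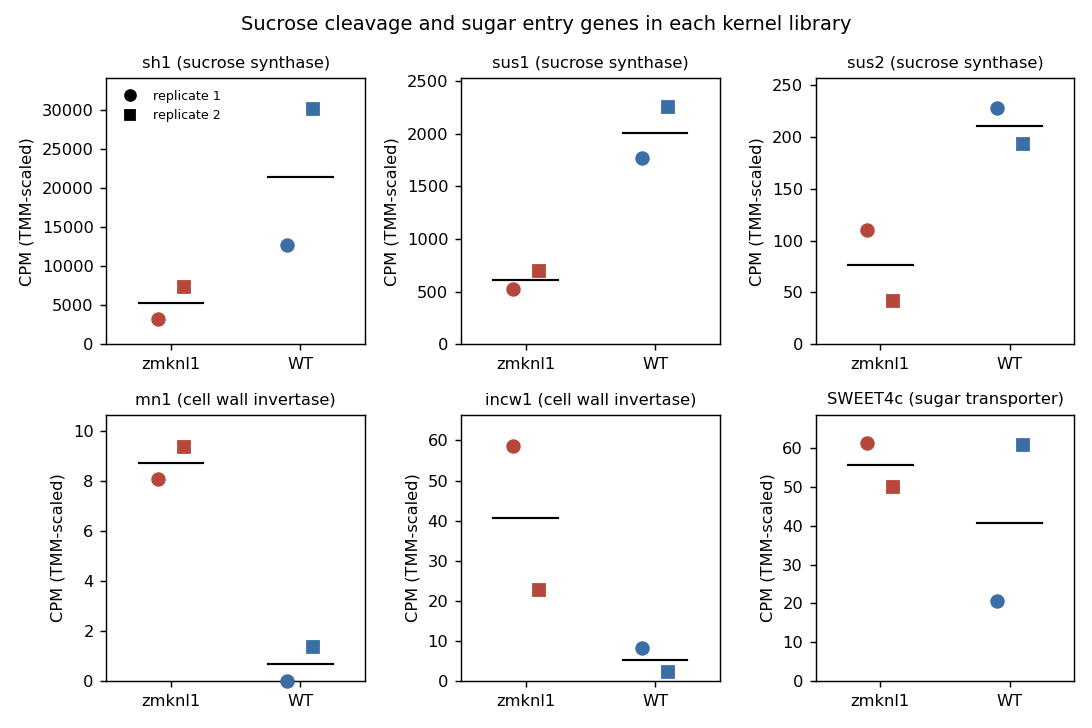
CPM on TMM-scaled library sizes (linear axes from 0) of each of the 6 genes in the zmknl1 libraries (red) and the WT libraries (blue); circles are replicate 1, squares replicate 2 and bars the mean of 2 libraries. The 3 sucrose synthase genes sit lower in zmknl1, mn1 and incw1 sit higher, and SWEET4c overlaps, with WT libraries at 20.5 and 60.8 CPM.

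Summed over the 3 genes, sucrose synthase transcripts came to 3871 and 8118 CPM in zmknl1 and 14640 and 32560 CPM in WT. The means, 5994 ± 3003 CPM in zmknl1 and 23600 ± 12671 CPM in WT (SD, n = 2 each), differed by -17606 CPM. With 2 libraries against 2, an exact two-sided permutation test cannot go below p = 0.333, and it gave p = 0.333 here. The sum is mostly sh1, so it adds little to the values of that gene.

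The make-up of the sucrose synthase counts did not separate the genotypes. The gene sh1 supplied 83.5% (95% exact Clopper-Pearson interval 83.3 to 83.8) and 90.9% (90.8 to 91.0) of the 3 genes' counts in the zmknl1 libraries, and 86.4% (86.3 to 86.5) and 92.5% (92.4 to 92.6) in the WT libraries. In both genotypes replicate 1 had the smaller sh1 share. The gene sus1 supplied 13.6 and 8.60% in zmknl1 and 12.1 and 6.91% in WT, and sus2 supplied 2.85 and 0.513% in zmknl1 and 1.56 and 0.593% in WT. The mean sh1 share differed by -2.24 percentage points, which was smaller than the spread between replicates (exact permutation p = 0.667, two-sided). These shares are of reads, not corrected for transcript length, and their intervals cover counting error only.

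The gene mn1, miniature1, encodes the cell wall invertase of the basal endosperm transfer layer. It had 185 and 235 counts in the zmknl1 libraries, against 0 and 16 counts in the WT libraries. On the CPM scale these were 8.10 and 9.39 in zmknl1 and 0 and 1.36 in WT, where a floor of 3 counts stands for 0.132 CPM in WT replicate 1. The zmknl1 libraries lay 1.16-fold apart, and both lay above both WT libraries. The log2 fold change was 3.77 ± 1.50 (SE), with an edgeR adjusted p of 0.445 and a DESeq2 adjusted p of 0.0702. Against WT replicate 1 alone, at 0 counts, the zmknl1 mean was at least 66.4-fold higher than that library's floor of 3 counts. Without WT replicate 1 the log2 fold change in edgeR was 2.67, and without WT replicate 2 its lower bound was 6.05, with WT at 0 counts. In both settings WT was 1 library, so the spread came from the zmknl1 pair and the lone WT library was assumed to vary like it. With all libraries and no low-count filter edgeR called the gene (adjusted p = 0.00723). That fit called 303 genes higher and 412 lower of 27309 tested.

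The gene incw1 encodes another cell wall invertase of maize. It measured 58.6 and 22.6 CPM in the zmknl1 libraries and 8.13 and 2.30 CPM in the WT libraries. Replicates differed by 2.59-fold in zmknl1 and 3.53-fold in WT, and the lower zmknl1 library was still above the higher WT library. The log2 fold change was 2.94 ± 0.75 (SE), with an edgeR adjusted p of 0.278, the lowest of the 6 genes, and a DESeq2 adjusted p of 0.00339. edgeR called it without a low-count filter (adjusted p = 3.14e-05), in a fit that called 303 genes higher and 412 lower of 27309 tested. Without WT replicate 1 the log2 fold change was 4.13, but WT was then the lower library alone, at 27 counts. The spread again came from the zmknl1 pair. Without WT replicate 2 the log2 fold change was 2.33, and without zmknl1 replicate 1 it was 2.11.

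Both invertase genes together had 66.7 and 32.0 CPM in zmknl1 and 8.13 and 3.67 CPM in WT, a mean of 49.3 ± 24.5 CPM against 5.90 ± 3.15 CPM (SD, n = 2 each; exact permutation p = 0.333, two-sided). The part of these counts that came from mn1 varied between libraries in both genotypes. It was 12.2% (10.6 to 13.9) and 29.3% (26.2 to 32.6) in zmknl1. In WT replicate 1 it was 0 of 185 counts (0 to 1.97%), where the floor of 3 counts stands for 1.62%. In WT replicate 2 it was 37.2% (23.0 to 53.3). The genotypes overlapped in this share.

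A ratio taken inside each library needs no scaling between libraries. For every 1000 counts of the 3 sucrose synthase genes, the zmknl1 libraries held 17.2 and 3.95 counts of the 2 invertase genes and the WT libraries held 0.555 and 0.113. The mean was 10.6 ± 9.39 in zmknl1 and 0.334 ± 0.313 in WT (SD, n = 2 each; exact permutation p = 0.333, two-sided). The lower zmknl1 value was above the higher WT value, although within each genotype replicate 1 exceeded replicate 2 by several fold. With any library left out the difference lay between 3.61 and 16.9. Its sign could not change, since the genotypes did not overlap in this ratio. This ratio was chosen after the values of the genes were known.

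**Figure D2:**
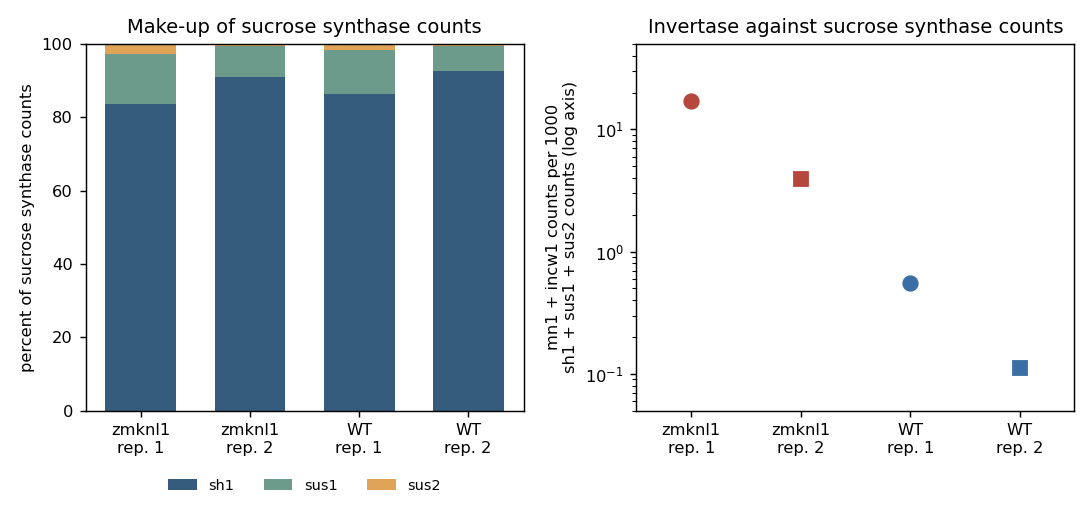
Left, the percent of sucrose synthase counts from sh1, sus1 and sus2 in each library; right, counts of mn1 and incw1 per 1000 counts of the 3 sucrose synthase genes in each library, on a log axis. The make-up on the left overlaps between genotypes, while on the right the zmknl1 libraries, at 17.2 and 3.95, sit above the WT libraries, at 0.555 and 0.113.

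SWEET4c encodes a hexose transporter of the basal endosperm transfer layer. It had 61.4 and 49.9 CPM in the zmknl1 libraries and 20.5 and 60.8 CPM in the WT libraries. The WT replicates were 2.97-fold apart and spanned the lower zmknl1 value, while the zmknl1 replicates were 1.23-fold apart. The means were 55.6 ± 8.11 CPM in zmknl1 and 40.6 ± 28.5 CPM in WT (SD, n = 2 each), and the log2 fold change of 0.46 ± 0.55 (SE) passed in neither tool (edgeR adjusted p = 0.858, DESeq2 adjusted p = 0.897). Its direction depended on the WT library used: -0.14 without WT replicate 1 and 1.45 without WT replicate 2. With no composition factor the zmknl1 libraries gave 71.2 and 55.0 CPM and the WT libraries 22.6 and 43.0 CPM, which no longer overlapped. For the other 5 genes the side on which the zmknl1 libraries lay was the same under all 4 scalings tried.

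**Figure D3:**
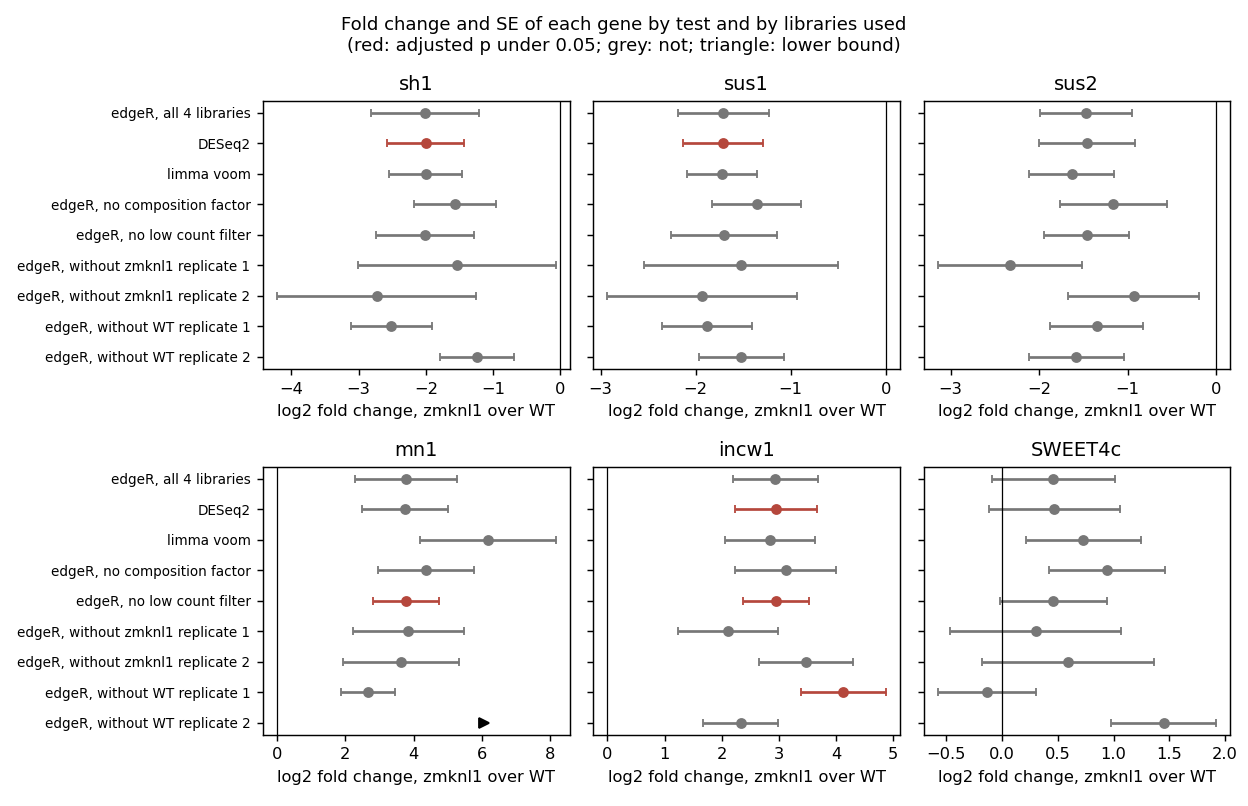
Log2 fold change of zmknl1 over WT (points, bars SE) of each gene by test and by libraries used; red points have an adjusted p under 0.05 and the triangle is the lower bound of mn1 against a WT library at 0 counts. The sucrose synthase genes stay below 0 and the invertase genes above 0 in every setting drawn, and SWEET4c falls on both sides.

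Some markers of kernel tissues lay apart between the genotypes as well, and the lists are described by library placement only. Of 13 marker symbols of the basal endosperm transfer layer, 7 IDs were found and 6 tested, of which 5 lay above both WT libraries in zmknl1, as did 21.9% of all tested genes, and 1 overlapped. Their summed level was 158 and 131 CPM in the zmknl1 libraries, against 39.6 and 52.7 CPM in the WT libraries. The defining marker betl1 was at 0 counts in all 4 libraries, and ebe2 was at 0 in both WT libraries. The layer is also the known site of mn1 and SWEET4c. In a bulk kernel, more or fewer cells of a type cannot be told apart from more or less RNA per cell. The part of the transfer layer in the values of mn1, incw1 and SWEET4c was not tested.

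Starchy endosperm markers, the tissue of sh1, lay below both WT libraries in zmknl1 for 5 of 9 tested IDs, and 4 overlapped. Of all tested genes, 20.0% lay below, which is the share to set beside this count and those of the embryo and the aleurone. They summed to 10878 and 11650 CPM in zmknl1 and 14591 and 41723 CPM in WT. Of the last value, 20902 CPM came from the alpha-zein gene fl2, which has near-identical copies. A further ID listed as ae1 was at 0 in both WT libraries. Embryo markers, 6 IDs, summed to 272 and 172 CPM in zmknl1 and 2957 and 713 CPM in WT, with 4 of 5 tested IDs lower in zmknl1; lec1 was at 0 in all 4 libraries and glb2 at 0 in zmknl1. Aleurone markers, 5 IDs, came to 203 and 181 CPM in zmknl1 and 360 and 239 CPM in WT, with 3 of 4 tested lower and c1 at 0 throughout. The 4 embryo-surrounding region IDs summed to 3.90 and 7.67 CPM in zmknl1 and 0.264 and 14.2 CPM in WT, and the 3 tested overlapped. The part of these tissues in the sucrose synthase values was not tested.

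The other genes of sucrose and hexose metabolism that were found by name gave no call. They held no hexose transporter, further SWEET, further sucrose synthase, invertase inhibitor or UDP-glucose pyrophosphorylase gene, so those steps were not examined. Of 14 further IDs taken by name from the reference table, 12 were tested, and edgeR and DESeq2 each called 0 of them in either direction, with 0 at an unadjusted edgeR p under 0.05. Their median log2 fold change was 0.04, beside 0.01 for all tested genes. Both zmknl1 libraries lay above both WT libraries for 2 of the 12 and below for 1, against 21.9% and 20.0% of all tested genes, and 9 overlapped.

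All 3 sucrose transporter genes overlapped between the genotypes. The proton-coupled sucrose transporter gene sut1 (GRMZM2G034302) measured 21.9 and 12.5 CPM in zmknl1 and 23.3 and 15.8 CPM in WT, and sut2 (GRMZM2G145107) 33.7 and 36.0 CPM in zmknl1 and 37.9 and 29.7 CPM in WT. Their log2 fold changes were -0.19 ± 0.49 and 0.04 ± 0.39 (SE). The other, sut4 (GRMZM2G307561), had -0.21 ± 0.58.

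Of the genes that process the products of cleavage, all but hex2 overlapped. The fructokinase genes frk1 (GRMZM2G086845) and frk2 (GRMZM2G051677), whose enzymes phosphorylate fructose, had log2 fold changes of 0.27 ± 0.46 and -0.09 ± 0.73 (SE). In frk2 the replicates split instead: 16.0 and 51.3 CPM in zmknl1 and 16.2 and 55.7 CPM in WT. The hexokinase gene hex2 (GRMZM2G432801) was the 1 gene below both WT libraries, at 20.6 and 23.1 CPM in zmknl1 against 30.5 and 27.6 CPM in WT (log2 fold change -0.41 ± 0.39, edgeR adjusted p = 0.811). The IDs GRMZM2G065083 and GRMZM6G477257, both listed as the glucose-6-phosphate isomerase gene phi1, gave 0.04 ± 0.41 and 0.07 ± 0.37.

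Genes that make sucrose were the 2 that lay above both WT libraries. The sucrose phosphate synthase gene sps1 (GRMZM5G875238) measured 3.28 and 2.48 CPM in zmknl1 and 0.307 and 0.853 CPM in WT (log2 fold change 2.33 ± 1.12, edgeR adjusted p = 0.553). The sucrose phosphate phosphatase gene SPP2 (GRMZM2G097641) measured 13.8 and 2.24 CPM in zmknl1 and 2.11 and 1.28 CPM in WT (2.23 ± 0.99, edgeR adjusted p = 0.516). Its more highly counted relative spp1 (GRMZM2G055489) gave 154 and 113 CPM in zmknl1 and 146 and 120 CPM in WT, with a log2 fold change of 0.01 ± 0.38.

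Soluble invertases, which split sucrose in the vacuole, had few counts. The gene ivr2 (GRMZM2G089836) had 1.05 and 0.839 CPM in zmknl1 and 0.922 and 0 CPM in WT. IVR1 (GRMZM2G394450) did not pass the filter on low counts, with 71 counts (3.11 CPM) in zmknl1 replicate 1, 0.280 CPM in zmknl1 replicate 2 and 0 and 0.0853 CPM in WT. The cell wall invertase gene incw3 (GRMZM2G123633) had 1 count in zmknl1 replicate 1 and 0 in the other libraries.

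**Figure D4:**
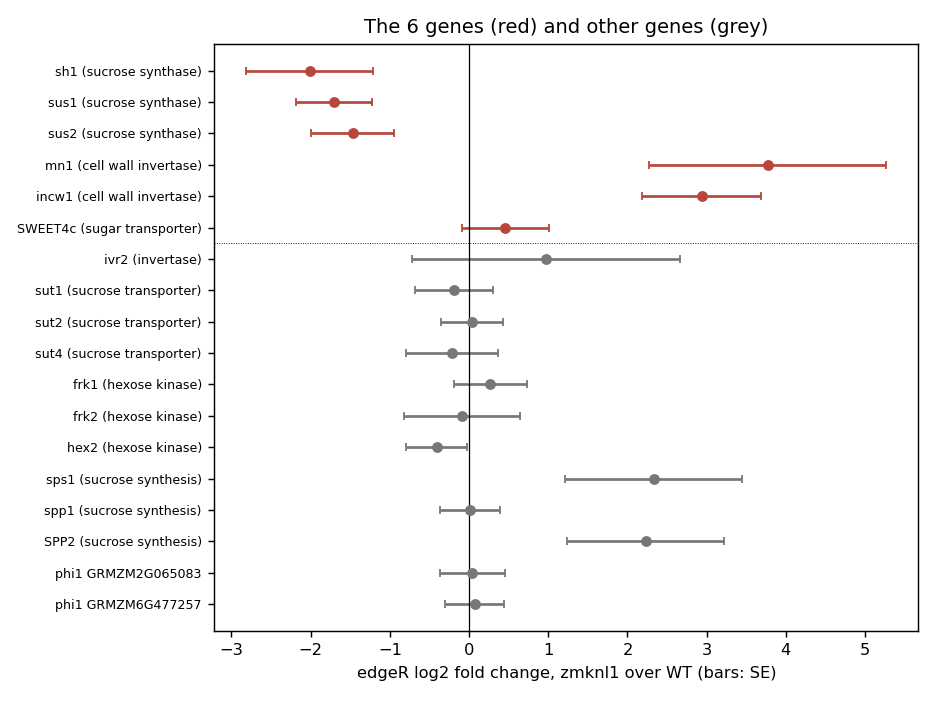
edgeR log2 fold change of zmknl1 over WT (points, bars SE, 2 libraries per genotype) of the 6 genes in red and of the 12 tested other genes of sucrose and hexose metabolism in grey. The sucrose synthase genes lie between -2.01 and -1.47 and the invertase genes at 3.77 and 2.94, the transporter, kinase and isomerase genes between -0.41 and 0.46, and sps1, SPP2 and ivr2 at 2.33, 2.23 and 0.97.

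Named genes with the most similar profile over the 4 libraries were sought among those with a mean of at least 5 CPM, 1472 or 1473 per gene, by the Euclidean distance between log2(CPM + 1) values centred on their own mean. The distances describe these libraries only. Nearest to sh1 came grp1 (GRMZM2G080603) at 0.158, with 1425 and 3344 CPM in zmknl1 and 5443 and 14970 CPM in WT, then the beta-zein gene bz15 (GRMZM2G086294) at 0.311 and SnRK2.5 (GRMZM2G110908) at 0.346. Nearest to sus1 came CYPPDKZM2 (GRMZM2G097457), a pyruvate orthophosphate dikinase gene, at 0.123, with 4934 and 6736 CPM in zmknl1 and 15178 and 21114 CPM in WT. AR6 (GRMZM2G060952) and bt2 (GRMZM2G068506), which encodes a subunit of ADP-glucose pyrophosphorylase, followed at 0.335 each. The profile of sus2 had no neighbour as close: HSP18 (GRMZM2G404249) stood at 0.579, vp1 (GRMZM2G133398) at 0.598 and Hsp70 (GRMZM2G310431) at 0.630.

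For mn1 the nearest was bap-3b (GRMZM2G133370) at 0.438, with 10.9 and 7.91 CPM in zmknl1 and 0 and 1.36 CPM in WT. The potassium transporter gene HAK1 (GRMZM2G093826) at 0.482 and the lipoxygenase gene lox1 (GRMZM2G156861) at 0.538 came next. For incw1 it was 4CL (GRMZM2G075333), listed under the abbreviation of an enzyme of phenylpropanoid synthesis, at 0.327, with 32.9 and 13.2 CPM in zmknl1 and 3.07 and 0.853 CPM in WT. PepR1 (GRMZM2G011806) at 0.701 and CPPS2 (GRMZM2G044481) at 0.927 were farther off. SWEET4c had the closest neighbour of all 6 genes, TAR3 (GRMZM2G141810) at 0.061, with 281 and 227 CPM in zmknl1 and 92.8 and 264 CPM in WT. DER1.1 (GRMZM2G117388) at 0.150 and yuc (GRMZM2G091819) at 0.199 shared its low value in WT replicate 1.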

How the data were processed

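Per the submitters' processing notes, reads were trimmed with Trimmomatic 0.36, aligned with HISAT2 2.0.1 to B73 RefGen_v3 and counted per gene with HTSeq. The deposited tables hold raw counts. The counting mode and strand setting are not given in the sources used here, so antisense reads cannot be told from those of a gene. Reads left as ambiguous between genes, 0.876 to 1.215% of all reads, were not counted. Reads aligned to several places were not counted either, which matters for paralogs such as the sucrose synthases. At the end of each file, 5 lines for reads assigned to no gene, 35.769 to 47.791% of all reads, were left out. Replicates differed far beyond sampling noise (chi-square over its degrees of freedom 83.6 in zmknl1 and 403 in WT).

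Genes were filtered with filterByExpr and tested with edgeR 4.0.16 in R 4.3.3 (quasi-likelihood, TMM, no covariate, two-sided). The SE is the log2 fold change over the root of F. DESeq2 1.42.0, which left 757 genes without an adjusted p, and voom in limma 3.58.1 were alternatives. Other scalings and filters, a robust fit, a replicate block and each library left out were tried. The gene tests were also run on simulated counts, with a smaller replicate spread than in these libraries. That run cannot show how the tests behave at the spread seen here, a biological coefficient of variation of 0.536 in edgeR. A floor is 3 counts in a library. Names came from a reference table of another assembly, which paired 19060 of 39625 IDs (48.1%) and holds no descriptions, so the other pathway genes were picked by symbol from it; its coordinates were not used. 2 marker matches to other proteins were left out. Named genes were the 6, any called pathway gene with the 2 highest in each class, and the 3 most alike per gene; sut4, hex2, sps1 and incw3 were added after their values were seen. GRMZM2G035213, listed as TMT, was dropped from the pathway genes after its values were seen, since that abbreviation also names a tocopherol enzyme. The genes and lists were chosen with earlier results of these data known.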

Additional observations from a re-analysis of the deposited data

How the results depend on the processing

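With 2 libraries per genotype, the calls depended on the test more than the values did. DESeq2 called sh1 (-2.00), sus1 (-1.71) and incw1 (2.95), thus 1 of the 6 genes higher and 2 lower. edgeR with no low-count filter called mn1 (3.78) and incw1 (2.95), 2 higher. Leaving out each library gave log2 fold changes from -2.73 to -1.24 for sh1, -1.93 to -1.52 for sus1, -2.33 to -0.93 for sus2, 2.67 to 6.05 for mn1 (the last a lower bound against 3 counts), 2.11 to 4.13 for incw1 and -0.14 to 1.45 for SWEET4c, the 1 gene that changed direction; 0 to 1 genes were then called higher and 0 lower. Among all tested genes, edgeR called 3 higher and 1 lower. It called 0 higher and 0 lower with no composition factor, or with library sizes without the 10 most abundant genes, as did limma voom. DESeq2 called 299 higher and 380 lower. With no low-count filter edgeR called 303 higher and 412 lower, of 27309 tested. It called 4 higher and 2 lower with a mean CPM of at least 1, and as many with robust empirical Bayes. With a library left out it called 7 to 415 higher and 12 to 390 lower. The cause was not tested. Low counts limit mn1, at 16 counts or fewer in WT.

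Same-numbered libraries deviated from their genotype means together (r = 0.365 over 19519 genes, which are not independent replicates), but the labels do not say what a number marks. Swapping the numbers within a genotype would only flip the sign of r, so r cannot show that the numbers mark pairs. A block also leaves fewer degrees of freedom per gene to measure the spread. With the replicate block edgeR called sh1 (-2.00), sus1 (-1.72), sus2 (-1.63), mn1 (4.70) and incw1 (3.06), 3 lower and 2 higher, not SWEET4c, and 267 genes higher and 375 lower in all.

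With any library left out, the summed sucrose synthase level differed by -26566 to -8646 CPM and the summed invertase level by 26.1 to 60.8 CPM. Neither sign could change, since these sums did not overlap between the genotypes. The shares, which overlapped, did not keep their direction. The sh1 share differed by -5.92 to 1.44 percentage points, at 0.811 without WT replicate 2 and 1.44 without zmknl1 replicate 1, and the sus1 share by -0.938 to 4.20, at -0.938 and -0.878 without the same libraries. The sus2 share ran from -0.562, without zmknl1 replicate 1, to 1.78. The mn1 share of invertase counts ran from -16.5, without WT replicate 1, to 20.7, and was -6.45 without zmknl1 replicate 2.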
